A study of Homo sapiens with 12 samples.

Results

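The genes described here belong to signalling by cyclic nucleotides and to the arrestins that act beside it. They are the phosphodiesterases PDE9A, PDE4D and PDE8A, the regulatory subunits PRKAR1A, PRKAR2A and PRKAR2B and the catalytic subunit PRKACB of protein kinase A (PKA), and the beta-arrestins ARRB1 and ARRB2. Of the 9 genes, 8 had at least 1 probe set whose only annotated symbol was theirs. ARRB2 had none and was not analysed here. The 8 genes were read by 20 of the 22215 probe sets of the array other than controls. Of these 20, 19 passed a filter on low signal that 13329 of all probe sets passed. The genes were chosen by a rule that used their signals over the 4 groups of these arrays and their 4-OHT change per construct and replicate pair. The response of the 8 genes to 4-OHT under either construct is therefore given as a description, without a test. So are their differences between constructs.

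The study looked for genes regulated by PAX3-FKHR, the fusion transcription factor of alveolar rhabdomyosarcoma, in RD cells, a line from an embryonal rhabdomyosarcoma. RNA was read on 12 Affymetrix U133A arrays, 3 in each of 4 groups. The first group carried PAX3-FKHR-ER and received 30 nM 4-hydroxytamoxifen (4-OHT) for 24 h, and the second carried PAX3-FKHR-ER and received none. The third carried the empty vector pK1 and received the same 4-OHT, and the fourth carried pK1 and received none. PAX3-FKHR-ER is the fusion joined to a modified ligand-binding domain of the estrogen receptor, which lets 4-OHT switch the protein on. All 4 groups were RD cells transduced in culture, and per the design text each construct had 3 populations. Whether a replicate number stands for a population is not stated, so the spread between replicates may be technical in part. Each array read RNA of many cells, and fewer cells of a kind cannot be told apart from less RNA in each cell.

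Cyclic AMP and cyclic GMP are made by cyclases, often after a receptor has been bound at the cell surface, and are broken down by phosphodiesterases. PKA is held inactive while its regulatory subunits bind the catalytic subunits, and cyclic AMP releases them. Beta-arrestins bind receptors that have been phosphorylated by receptor kinases, stop the signal to the G protein and carry the receptors into the cell. In skeletal muscle, cyclic AMP and PKA act on metabolism, contraction and growth.

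The 4 arrays of replicate 1 stood apart from the other 8 before any gene was considered. Probe sets for the poly-A spike-in RNA had median signals there of 2.58 to 7.41, against 118 to 291 on the other arrays. Over all tested probe sets, these 4 arrays correlated with the other 8 at Pearson r of 0.815 to 0.869, and among themselves at 0.957 to 0.982. FOXO1, part of the fusion, read 142 under the PAX3-FKHR-ER label and 214 under the pK1 label in replicate 1 without 4-OHT. In replicates 2 and 3 it read 146 and 124 under the PAX3-FKHR-ER label against 52.1 and 36.1 under the pK1 label. With 4-OHT, FOXO1 in replicate 1 read 138 under the PAX3-FKHR-ER label and 121 under the pK1 label. PAX3 in replicate 1 read 17.6 and 49.4 without 4-OHT and 58.9 and 57.8 with it, under the PAX3-FKHR-ER and the pK1 label. Without 4-OHT, both genes thus went against the construct labels of replicate 1, and every value from all replicates rests on those labels. Groups are named by their labels, and values for replicates 2 and 3 are given beside those for all replicates. Of 8 markers of the muscle lineage, 7 were above the signal filter. MYOD1 read 197 to 2098 and desmin (DES) 85.6 to 862, while MYF5 stayed at 0.814 to 15.5. The summed signal of the 8 ran over 5579 to 8727 and 4911 to 12392 in PAX3-FKHR-ER cells with and without 4-OHT, and over 1699 to 7498 and 1858 to 7351 in pK1 cells with and without it. The part of this spread in the results below was not tested. None of 3 epithelial markers passed the filter, and of the markers of leukocytes, endothelium and neurons CD3E, PECAM1 and SNAP25 did.

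With 4-OHT, 3 of the 8 genes were higher by at least 1 on the log2 scale in both the replicate 2 and the replicate 3 pair of PAX3-FKHR-ER cells. They were PRKAR2B, PDE9A and ARRB1, while 0.398% of all tested probe sets moved so far. In the replicate 1 pair the same probe sets changed by -0.36, 0.02 and 0.08, in that order of genes. A change is the difference of log2(signal + 16) between the arrays with and without 4-OHT that share a construct and a number. The 16 added to each signal makes the change of dim probe sets smaller than their ratio. Over the 8 genes, each read by its brightest probe set, the median change in replicates 2 and 3 was 0.07 in PAX3-FKHR-ER cells and 0.05 in pK1 cells. Over all tested probe sets it was -0.02 and -0.01. The 8 genes as a group thus had medians near those of the array, with 3 members far from it.

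The regulatory subunits of PKA set how much of the kinase is held back and where in the cell it is anchored. PRKAR1A encodes the type I alpha subunit, and PRKAR2A and PRKAR2B encode the type II alpha and beta subunits, which bind the A-kinase anchoring proteins. The windows around their annotated starts, from 250 bases before to 50 after, are shown to set the gene whose signal differed with 4-OHT beside its relatives. They are RefSeq sequences of GRCh38.p14, read on the strand of the gene. Capitals mark TGACGTCA, the full cyclic AMP response element, its shorter core TGACG, ATTA, the core of a homeodomain site, and GTCAC, the core of a paired-domain site, each on either strand.
PRKAR2B, chr7:107044455-107044754, plus strand: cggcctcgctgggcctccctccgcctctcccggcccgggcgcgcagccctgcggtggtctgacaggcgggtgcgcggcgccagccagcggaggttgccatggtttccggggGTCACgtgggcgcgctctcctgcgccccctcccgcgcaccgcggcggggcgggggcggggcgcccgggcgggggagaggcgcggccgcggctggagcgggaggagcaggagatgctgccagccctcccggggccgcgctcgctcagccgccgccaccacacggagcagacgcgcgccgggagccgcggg
PRKAR2A, chr3:48847825-48848124, minus strand: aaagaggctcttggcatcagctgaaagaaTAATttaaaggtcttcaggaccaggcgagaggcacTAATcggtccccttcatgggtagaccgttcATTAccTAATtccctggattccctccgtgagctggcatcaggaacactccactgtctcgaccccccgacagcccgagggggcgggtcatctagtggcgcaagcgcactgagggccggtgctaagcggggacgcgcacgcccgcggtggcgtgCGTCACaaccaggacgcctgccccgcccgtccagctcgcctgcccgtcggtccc
PRKAR1A, chr17:68512129-68512428, plus strand: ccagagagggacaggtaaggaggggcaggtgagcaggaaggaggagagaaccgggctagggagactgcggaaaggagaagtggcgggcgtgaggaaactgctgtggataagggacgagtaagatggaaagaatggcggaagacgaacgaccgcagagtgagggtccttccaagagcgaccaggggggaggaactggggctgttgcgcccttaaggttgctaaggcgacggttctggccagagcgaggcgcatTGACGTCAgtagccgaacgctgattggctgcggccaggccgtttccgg
The PRKAR2B window held 1 GTCAC, no ATTA and no TGACG, and 81.7% of its bases were G or C, against a median of 58.7% over all 35116 windows. The PRKAR2A window held 4 ATTA, 1 GTCAC and 1 TGACG, the last overlapping the GTCAC. The PRKAR1A window held 1 TGACGTCA, which contains TGACG on both strands. PRKAR1A has 5 windows in the table, and the one shown was picked as 1 of 2 overlapping windows with TGACGTCA. Outside that overlapping pair, the window starting at 68511750 held 1 TGACG and that at 68512634 held 1 GTCAC and 1 TGACG. The window at 68515144 held 3 ATTA. Over all windows, 42.5% held GTCAC, 50.2% ATTA, 24.6% TGACG and 1.85% TGACGTCA. A palindrome of a pair of homeodomain cores is the kind of site bound by dimers of paired-class homeodomains. It lay in 0.365% of all windows and in none of the 24 windows of the 7 listed genes with a window. At so low a share, its absence from 24 windows says little. PDE9A and ARRB1 had no window, and the 24 include 1 of ARRB2, which was not analysed on the arrays. A match of these letters is a description of the window and not of a bound site.

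PRKAR2B was the regulatory subunit that differed with 4-OHT. Its single probe set read 45.8, 103 and 102 in replicates 1, 2 and 3 of PAX3-FKHR-ER cells with 4-OHT, against 63.3, 25.4 and 13.1 in those without. In pK1 cells it read 41.2, 77.9 and 40.7 with 4-OHT, against 57.2, 81.0 and 17.6 without. Both PAX3-FKHR-ER arrays with 4-OHT of replicates 2 and 3 thus lay above every other array, while the groups overlapped once replicate 1 was included. The changes were -0.36, 1.52 and 2.01 in PAX3-FKHR-ER cells, a mean of 1.77 ± 0.35 (SD, n = 2) without replicate 1 and 1.06 ± 1.25 (SD, n = 3) with it. In pK1 cells they were -0.36, -0.05 and 0.75, so the replicate 3 pair moved upward under both constructs and the replicate 1 pair downward by the same amount in both. Without 4-OHT, PRKAR2B was lower in PAX3-FKHR-ER than in pK1 cells by a mean of -0.72 on the log2 scale in replicates 2 and 3, and with 4-OHT it was higher by 0.70. Over all 3 replicates these differences were -0.44 and 0.50.

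PRKAR1A and PRKAR2A showed no such pattern. PRKAR1A read 1060, 1051 and 961 in PAX3-FKHR-ER cells with 4-OHT, against 1200, 909 and 1297 without. The pK1 arrays gave 1709, 577 and 927 with 4-OHT, against 1181, 681 and 787 without. The groups overlapped in each comparison over 3 arrays. Its changes were -0.18, 0.21 and -0.43 in PAX3-FKHR-ER cells and 0.53, -0.23 and 0.23 in pK1 cells. A second PRKAR1A probe set, 200603_at, moved one way under each construct, by -0.08, -0.43 and -0.06 in PAX3-FKHR-ER cells and by 0.26, 0.39 and 0.36 in pK1 cells. Probe set 200604_s_at of the gene did not follow it, at -0.04, 0.26 and -0.17 in PAX3-FKHR-ER cells and 0.51, -1.05 and -0.41 in pK1 cells. The 3 probe sets of PRKAR1A correlated with each other at r of 0.361 to 0.752 over the 12 arrays. No single direction describes the 4-OHT change of the gene. Without 4-OHT, the 3 were higher in PAX3-FKHR-ER than in pK1 cells by means of 0.56, 0.69 and 0.26 in replicates 2 and 3. These are for the brightest, 200603_at and 200604_s_at in turn. With 4-OHT the differences were 0.45, 0.08 and 1.03. Over all 3 replicates they were 0.38, 0.45 and 0.25 without 4-OHT, and 0.07, -0.07 and 0.59 with it.

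PRKAR2A read 519, 618 and 678 in PAX3-FKHR-ER cells with 4-OHT, against 424, 718 and 674 without. With pK1 it read 378, 867 and 621 with 4-OHT, against 532, 738 and 627 without. Its changes of 0.28, -0.21 and 0.01 in PAX3-FKHR-ER cells and -0.48, 0.23 and -0.01 in pK1 cells had mixed signs. Another probe set, 204843_s_at, read 41.4 and 22.2 in replicates 1 and 2 of pK1 cells with 4-OHT against 71.6 and 109 without, and its change of -1.71 in replicate 2 was not seen with the other probe sets of the gene. By their brightest probe sets, PRKAR1A and PRKAR2A varied in opposite directions, with r of -0.821 over the 12 arrays. Over the 8 arrays of replicates 2 and 3, r was -0.675. These values describe 1 probe set per gene. PRKAR2A probe set 204843_s_at did not follow the brightest one, with r of 0.104 over the 12 arrays and -0.644 over the 8. These arrays share their processing and their replicate structure.

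**Figure D1:**
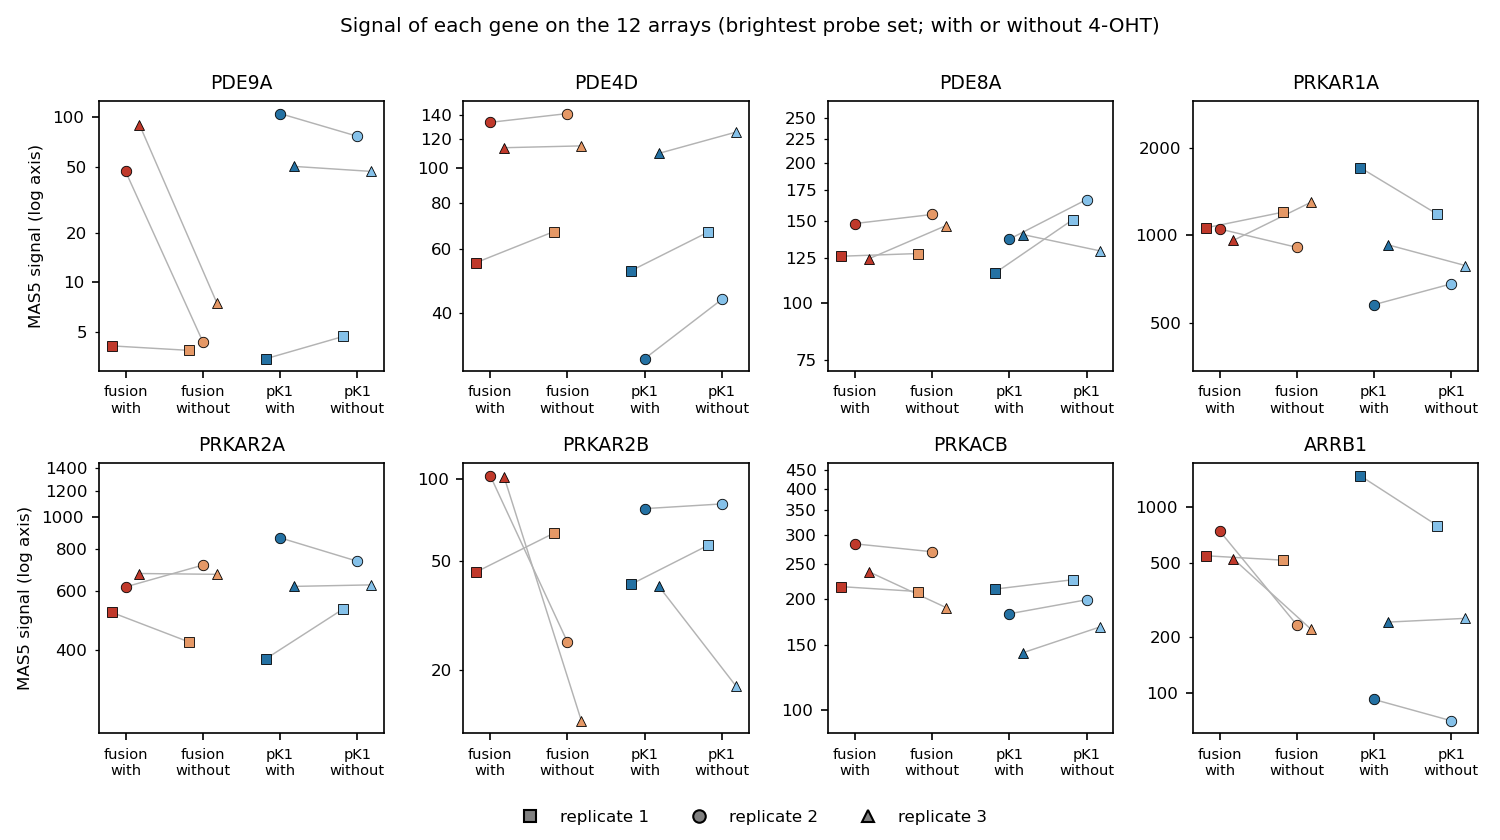
MAS5 signal on a log axis for the brightest probe set of each of the 8 genes, with PAX3-FKHR-ER (fusion) and pK1 arrays with and without 4-OHT from left to right, and a grey line joining the arrays of a pair. For PDE9A, PRKAR2B and ARRB1 the fusion circles and triangles with 4-OHT lie above those without, while the fusion squares of replicate 1 do not show it, that of PRKAR2B being lower with 4-OHT.

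PRKACB encodes the beta catalytic subunit, 1 of the enzymes that the regulatory subunits hold. It read 217, 284 and 238 in PAX3-FKHR-ER cells with 4-OHT, against 210, 270 and 190 without. Its pK1 signals were 214, 183 and 143 with 4-OHT, against 226, 200 and 169 without. Every PAX3-FKHR-ER array with 4-OHT lay above every pK1 array with 4-OHT, though the nearest were 217 and 214, and 3.18% of all probe sets separated in that direction. The changes were small and of opposite sign by construct, at 0.04, 0.07 and 0.30 in PAX3-FKHR-ER cells and -0.08, -0.12 and -0.21 in pK1 cells. Such opposite signs in all pairs were found for 3.12% of all tested probe sets. The second PRKACB probe set, 202742_s_at, did not repeat this, with -0.21, 0.19 and -0.38 in PAX3-FKHR-ER cells and 0.76, -1.15 and 0.06 in pK1 cells.

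The phosphodiesterases on the list differ in what they break down. PDE9A hydrolyses cyclic GMP with high affinity, and PDE4D and PDE8A hydrolyse cyclic AMP, PDE4D being a target of the drug rolipram. PDE9A read 4.13, 46.9 and 89.9 in PAX3-FKHR-ER cells with 4-OHT, against 3.88, 4.38 and 7.55 without. The vector cells (pK1) gave 3.46, 105 and 50.2 with 4-OHT, against 4.71, 76.4 and 46.9 without. All 4 arrays of replicate 1 were thus near the bottom of the scale, whatever their construct or treatment. Among the other 8, the PAX3-FKHR-ER arrays without 4-OHT stood alone at 4.38 and 7.55, and the other 6 lay between 46.9 and 105. The changes were 0.02, 1.63 and 2.17 in PAX3-FKHR-ER cells, a mean of 1.90 ± 0.38 (SD, n = 2) in replicates 2 and 3 and 1.27 ± 1.12 (SD, n = 3) over all, and -0.09, 0.39 and 0.08 in pK1 cells.

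The constructs stood further apart in PDE9A without 4-OHT than with it. In replicates 2 and 3 the PAX3-FKHR-ER arrays were lower than the pK1 arrays by a mean of -1.80 on the log2 scale without 4-OHT, and by -0.13 with it. Over all 3 replicates the differences were -1.22 and -0.07. PDE9A with 4-OHT in PAX3-FKHR-ER cells therefore read within the range of the pK1 cells. Signals under 16 are smaller than the amount added before the logarithm, so the size of these changes depends on it. Over the 12 arrays the PAX3-FKHR-ER change was 1.27 with 16 added, 2.21 with 1 added and 0.60 with 64 added. The mean signal of PDE9A, 36.9, was just over the filter at 36.7. It passed only through the arrays at 46.9 to 105, as the rest read 3.46 to 7.55.

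PDE4D and PDE8A changed little by their brightest probe sets. PDE4D read 55.0, 133 and 114 in PAX3-FKHR-ER cells with 4-OHT, against 66.8, 141 and 115 without. Under the pK1 label it read 52.1, 29.9 and 110 with 4-OHT, against 66.6, 43.5 and 125 without. Its changes were negative in all 3 pairs of both constructs, at -0.22, -0.07 and -0.01 in PAX3-FKHR-ER cells and -0.28, -0.37 and -0.17 in pK1 cells. The other 3 PDE4D probe sets were higher in all 3 PAX3-FKHR-ER pairs, as were 13.2% of all tested probe sets. These 3 read 1 gene and correlated with each other at r of 0.769 to 0.933 over the 12 arrays. The largest of their changes in those pairs, 0.72, was that of 210836_x_at in replicate 2. The same probe set changed by 0.03 and 0.33 in replicates 1 and 3. One of the 3, 211840_s_at, was under the signal filter, with a mean signal of 21.7. PDE4D has many transcripts with different starts, and which of them each probe set reads was not examined here.

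PDE8A was the steadiest of the 8 genes, with a highest signal 1.44 times the lowest over the 12 arrays. It read 126, 148 and 124 in PAX3-FKHR-ER cells with 4-OHT, against 128, 155 and 147 without. In pK1 cells it read 116, 137 and 140 with 4-OHT, against 151, 167 and 129 without. Both of its probe sets were lower in all 3 PAX3-FKHR-ER pairs, by -0.02, -0.06 and -0.21 and by -0.22, -0.18 and -0.29. Of all tested probe sets, 14.9% were lower in all 3 of these pairs.

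ARRB1 encodes beta-arrestin 1, and its signals ran over a ratio of 20.9 from highest to lowest, second to 30.3 for PDE9A. The brightest of its 4 probe sets, 43511_s_at, read 549, 748 and 528 in PAX3-FKHR-ER cells with 4-OHT, against 520, 233 and 222 without. The pK1 arrays gave 1483, 92.4 and 241 with 4-OHT, against 798, 71.0 and 253 without. All 3 PAX3-FKHR-ER arrays with 4-OHT lay above all 3 without, though in replicate 1 the gap was 549 against 520. The pK1 arrays spread over both, from 71.0 in replicate 2 to 1483 in replicate 1, the highest signal of the gene. The changes were 0.08, 1.62 and 1.20 in PAX3-FKHR-ER cells, a mean of 1.41 ± 0.30 (SD, n = 2) in replicates 2 and 3 and 0.96 ± 0.80 (SD, n = 3) over all, and 0.88, 0.32 and -0.06 in pK1 cells.

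The other ARRB1 probe sets moved alike in the PAX3-FKHR-ER pairs. Probe set 49111_at changed by 0.15, 1.55 and 2.07, 221861_at by 0.10, 0.92 and 1.25, and 218832_x_at by 0.22, 1.31 and 1.18 in replicates 1, 2 and 3. In all, 3 of the 4 did not overlap between PAX3-FKHR-ER arrays with and without 4-OHT over 3 replicates, where 1.7% of all probe sets were higher without overlap. In pK1 cells all 4 were higher in the replicate 1 pair, by 0.88 to 1.79, and only 49111_at was higher in the other 2 pairs, by 0.38 and 0.30. The 4 probe sets correlated with each other at r of 0.701 to 0.975 over the 12 arrays and share their samples and their gene. Between constructs in replicates 2 and 3, 43511_s_at was higher in PAX3-FKHR-ER cells by a mean of 1.95 with 4-OHT and 0.67 without. Without 4-OHT these replicates disagreed, PAX3-FKHR-ER against pK1 being 233 against 71.0 in replicate 2 and 222 against 253 in replicate 3. Over all 3 replicates the mean differences with and without 4-OHT were 0.83 and 0.25. Of those, the first was -0.01 without pK1 with 4-OHT replicate 2, and the second -0.56 without pK1 without 4-OHT replicate 2 and -0.13 without PAX3-FKHR-ER without 4-OHT replicate 1.

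**Figure D2:**
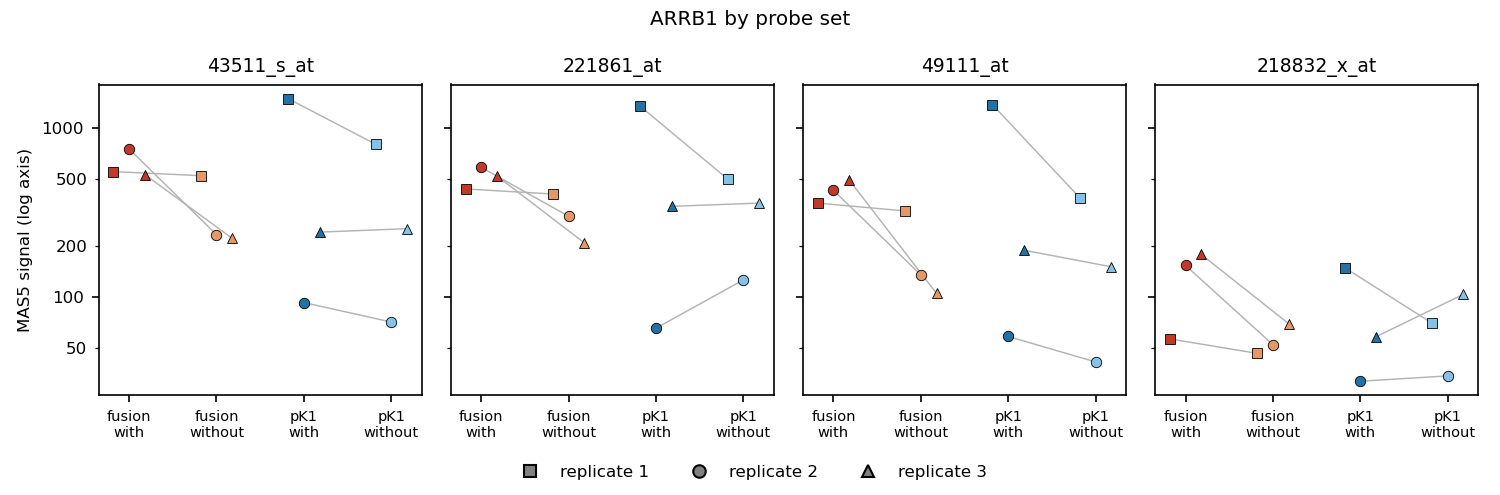
MAS5 signal on a log axis for the 4 probe sets of ARRB1, with PAX3-FKHR-ER (fusion) and pK1 arrays with and without 4-OHT from left to right and grey lines joining pairs. In each panel the fusion circle and triangle with 4-OHT lie above those without, and in 3 panels the pK1 square with 4-OHT is the highest point.

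Counted by direction, 3 of the 8 genes were higher in all 3 PAX3-FKHR-ER pairs by their brightest probe set (PDE9A, PRKACB and ARRB1) and 2 were lower (PDE4D and PDE8A). Over all tested probe sets the shares were 13.2% and 14.9%. In pK1 cells 0 were higher and 2 lower in all 3 pairs, PDE4D and PRKACB, with 12.6% and 16.6% over all tested probe sets. The 3 genes with large changes did not do so as a unit over the arrays. PDE9A and PRKAR2B correlated at r of 0.485 over 12 arrays and 0.748 over the 8 of replicates 2 and 3. ARRB1 correlated with PDE9A at -0.544 and -0.146 and with PRKAR2B at 0.092 and 0.136 over the same sets of arrays.

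**Figure D3:**
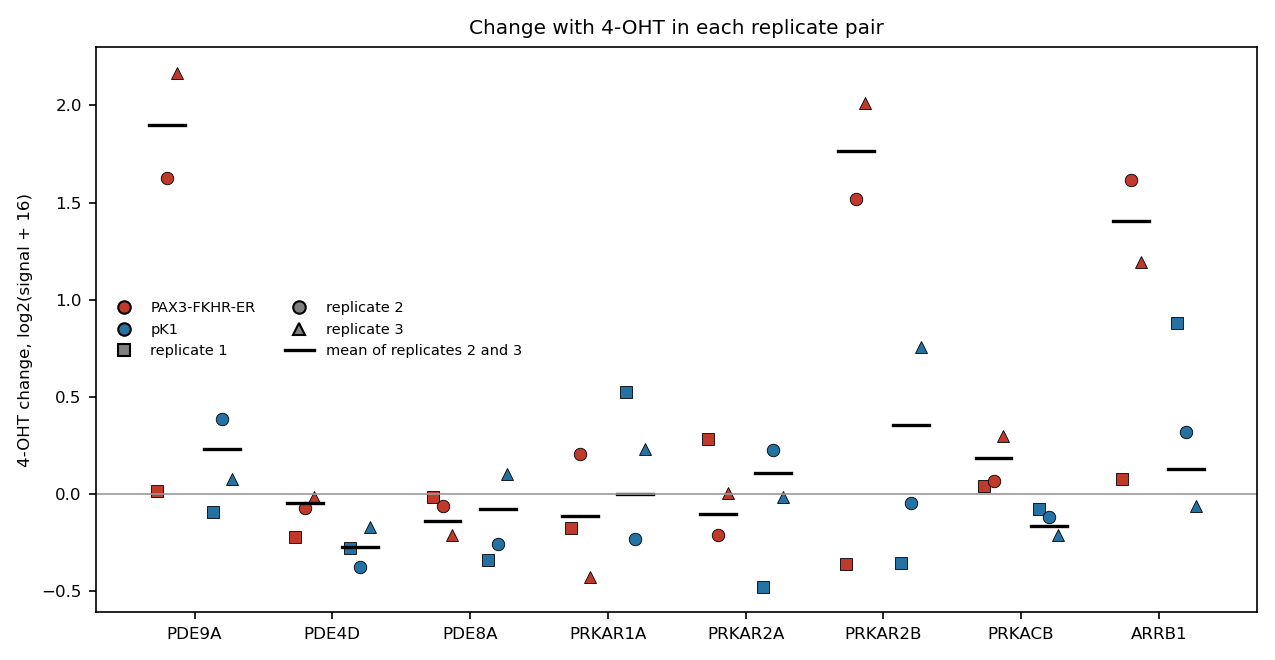
Change with 4-OHT on the log2(signal + 16) scale in each of the 3 pairs of PAX3-FKHR-ER arrays (red) and pK1 arrays (blue), for the brightest probe set of each gene, with a bar at the mean of replicates 2 and 3. The red circles and triangles of PDE9A, PRKAR2B and ARRB1 lie between 1.20 and 2.17, and all other points lie below 0.9.

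Fitted with limma to all 12 arrays, 0 of the 8 genes passed an adjusted p of 0.05 for 4-OHT in PAX3-FKHR-ER cells, as did 0% of all tested probe sets. Fitted to replicates 2 and 3 with the pair as a block, PDE9A, PRKAR2B and ARRB1 passed, as 6 of 19 probe sets, where 1.4% of all did. These calls were lost without the block there, where 0 of all tested probe sets passed. They were also lost with the block over 12 arrays, at limma adjusted p of 0.633, 0.684 and 0.627, where again 0 of all passed. Since these values chose the genes, the count of 6 is a description. PDE9A was also among the tested probe sets only through the arrays where it read high. In pK1 cells 0 of the 8 passed in either fit, against 0% of all. The rule used the pK1 changes too, so this count is also a description. In pK1 replicates 2 and 3 the mean change of PRKAR2B was 0.35 ± 0.57, that of PDE9A 0.23 ± 0.22 and that of ARRB1 0.13 ± 0.27 (SD, n = 2). For the difference of the 4-OHT changes between constructs, which is made from the same values and read likewise, 0 of the 8 passed in either fit, against 0% of all over 12 arrays and 0.0525% in the paired replicates 2 and 3. Between constructs the block in replicates 2 and 3 was the replicate number. There too 0 of the 8 passed in either fit without 4-OHT (0% and 0.0075% of all) or with it (0% and 0.158% of all). The rule used the signals of all groups, so these counts are a description too.

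By Pearson r over the 12 arrays, the genes whose signals ran most like ARRB1 were MYCN (0.986), CHD7 (0.973), ZNF395 (0.960), ACTN1 (0.956) and CHSY1 (0.947). Over the 8 arrays of replicates 2 and 3, r was 0.982, 0.974, 0.947, 0.924 and 0.967 in the same order. MYCN, a transcription factor of the MYC family, read 158, 177 and 90.1 in PAX3-FKHR-ER cells with 4-OHT, against 124, 39.5 and 47.4 without. With pK1 it read 330, 1.88 and 30.5 with 4-OHT, against 169, 2.72 and 46.7 without. As for ARRB1, the highest pK1 array was replicate 1 with 4-OHT and the lowest pK1 arrays were those of replicate 2. For PDE9A the most alike were NDUFS7 (0.912), TTC27 (0.898), TWF2 (0.895), EIF1 (0.893) and CYREN (0.892). For PRKAR2B they were THOC2 (0.841), SETD2 (0.835), RHOT2 (0.813), CCHCR1 (0.808) and LIG3 (0.791). These genes were picked as the highest of all tested probe sets on arrays of which 4 stand apart, so such values describe the arrays.

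The wider pathway was read through 11 lists holding 150 genes, of which 124 had a probe set and 70 a tested one. Over 12 arrays 0 of the 70 passed in any of the 5 comparisons with limma, and 0 to 3 had an unadjusted p under 0.05. In the paired fit to replicates 2 and 3, 0 rose and 2 fell with 4-OHT in PAX3-FKHR-ER cells, where 0.795% of all tested probe sets were called higher and 0.6% lower. The 2 were PKIA, an inhibitor protein of PKA, and SIK1, a salt-inducible kinase whose gene is switched on by cyclic AMP. Between constructs the block was the replicate number in place of the pair. No list gene passed in the other 4 comparisons of these replicates, where 3 to 14 had an unadjusted p under 0.05. The largest of these counts, 14 of 70 or 20%, was between the constructs without 4-OHT, where 9.75% of all tested probe sets had such a p. In the other 3 the list shares were 4.29% to 12.9%, against 5.7% to 13% over all. By sign alone, 13 of the 70 were higher and 26 lower in both pairs, with 25.7% and 31% over all tested probe sets.

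PKIA read 825, 157 and 163 in PAX3-FKHR-ER cells with 4-OHT, against 1008, 360 and 276 without. Its pK1 signals were 391, 181 and 304 with 4-OHT, against 844, 171 and 316 without. The PAX3-FKHR-ER arrays of replicates 2 and 3 with 4-OHT were below those without, and the pK1 arrays of those replicates differed little. The change in the PAX3-FKHR-ER pairs was -0.92 ± 0.15 SE with a limma adjusted p = 0.0267 in the paired fit, against -0.71 ± 0.71 SE and an adjusted p = 1 over 12 arrays. The pairs gave -0.28, -1.12 and -0.71 in PAX3-FKHR-ER cells, and -1.08, 0.08 and -0.05 in pK1 cells. The difference between constructs in the paired fit, -0.93 ± 0.22 SE, did not pass (limma adjusted p = 0.206).

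SIK1 read 172, 124 and 91.5 in PAX3-FKHR-ER cells with 4-OHT, against 110, 223 and 261 without. The vector cells (pK1) gave 142, 68.2 and 187 with 4-OHT, against 147, 69.3 and 165 without. The pK1 pairs were nearly level, and the replicate 1 pair of PAX3-FKHR-ER cells went the other way from replicates 2 and 3. The change in the PAX3-FKHR-ER pairs was -1.07 ± 0.19 SE in the paired fit with a limma adjusted p = 0.0318, and -0.52 over 12 arrays with an adjusted p = 1. The difference between constructs in the paired fit, -1.14, did not pass (limma adjusted p = 0.206).

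**Figure D4:**
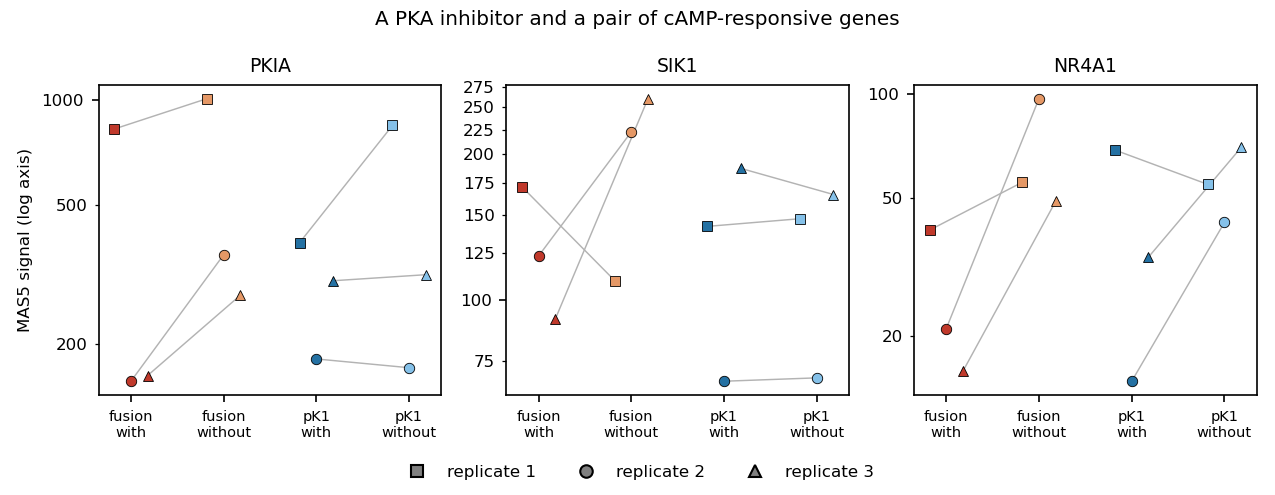
MAS5 signal on a log axis for PKIA, SIK1 and NR4A1, with PAX3-FKHR-ER (fusion) and pK1 arrays with and without 4-OHT from left to right and grey lines joining pairs. The fusion circles and triangles with 4-OHT lie below those without in all 3 panels, and for NR4A1 the pK1 circle and triangle do so as well.

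The other genes of these lists did not pass. Of 5 tested cyclic AMP responsive genes SIK1 fell in the paired fit, and the list median in replicates 2 and 3 was -0.40 in PAX3-FKHR-ER and -0.02 in pK1 cells. NR4A1, an orphan nuclear receptor on this list named after its values were seen, changed by -0.34, -1.61 and -1.03 in PAX3-FKHR-ER cells and by 0.26, -0.93 and -0.79 in pK1 cells. Its limma adjusted p in the paired fit was 0.0627. It was thus lower under both constructs in replicates 2 and 3. Of 5 tested genes among the other PKA subunits and inhibitors PKIA fell, with list medians of -0.18 and -0.06. The 6 genes of the CREB family and its coactivators had medians of 0.09 and -0.14, and CREB1 (0.38 and 0.08) and CREM (0.20 and 0.15) moved most in PAX3-FKHR-ER replicates 2 and 3.

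No tested gene passed among the enzymes that make or break down cyclic nucleotides or the kinases that cyclic GMP switches on. The 7 other phosphodiesterases had a median of -0.39 in PAX3-FKHR-ER and -0.25 in pK1 cells, with changes of -0.59 and -0.42 for PDE4B and -0.45 and -0.42 for PDE3B in PAX3-FKHR-ER replicates 2 and 3. The medians were -0.09 and 0.00 for the 6 adenylyl cyclases, with ADCY1 at -1.08 and 0.01 and ADCY2 at -0.31 and -0.22. For the 5 guanylyl cyclases and cyclic GMP kinases the medians were -0.06 and 0.00. GUCY1A1, a subunit of the nitric oxide receptor, changed by -0.01, 0.91 and 1.09 in the PAX3-FKHR-ER pairs and by -0.81, 0.74 and -0.50 in the pK1 pairs, with a limma adjusted p of 0.249 for PAX3-FKHR-ER in the paired fit. PRKG1, a cyclic GMP-dependent kinase, changed by 1.43, -0.65 and -0.57 in the PAX3-FKHR-ER pairs, so replicate 1 was opposite in sign.

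Anchoring proteins, effectors, G proteins, receptor kinases and receptors held no tested gene that passed. The 10 A-kinase anchoring proteins had medians of -0.05 in PAX3-FKHR-ER and 0.02 in pK1 cells, with AKAP7 at -0.59 and -0.50 and AKAP12 at 0.58 and 0.11 in PAX3-FKHR-ER replicates 2 and 3. The other effectors of cyclic AMP were POPDC3 (0.21 and 0.20) and RAPGEF3 (-0.16 and 0.39). The 10 G protein alpha subunits had medians of -0.12 and -0.09, with GNAZ at -0.24 and -0.44 and GNAO1 at -0.45 and -0.13. The 6 tested genes among receptor kinases, which phosphorylate receptors before an arrestin binds, and other arrestins had medians of -0.10 and -0.11. Of these, GRK5 changed by -0.31 and -0.98 and GRK3 by 0.76 and 0.46. GRK3 also changed by 0.82 in the replicate 1 pair of PAX3-FKHR-ER cells and by 1.63 in that of pK1 cells, and its limma adjusted p in the paired fit was 0.209. The 8 Gs-coupled receptors had medians of -0.13 and -0.06, with MC1R at -0.10 and -0.88 and VIPR1 at -0.77 and -0.17.

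**Figure D5:**
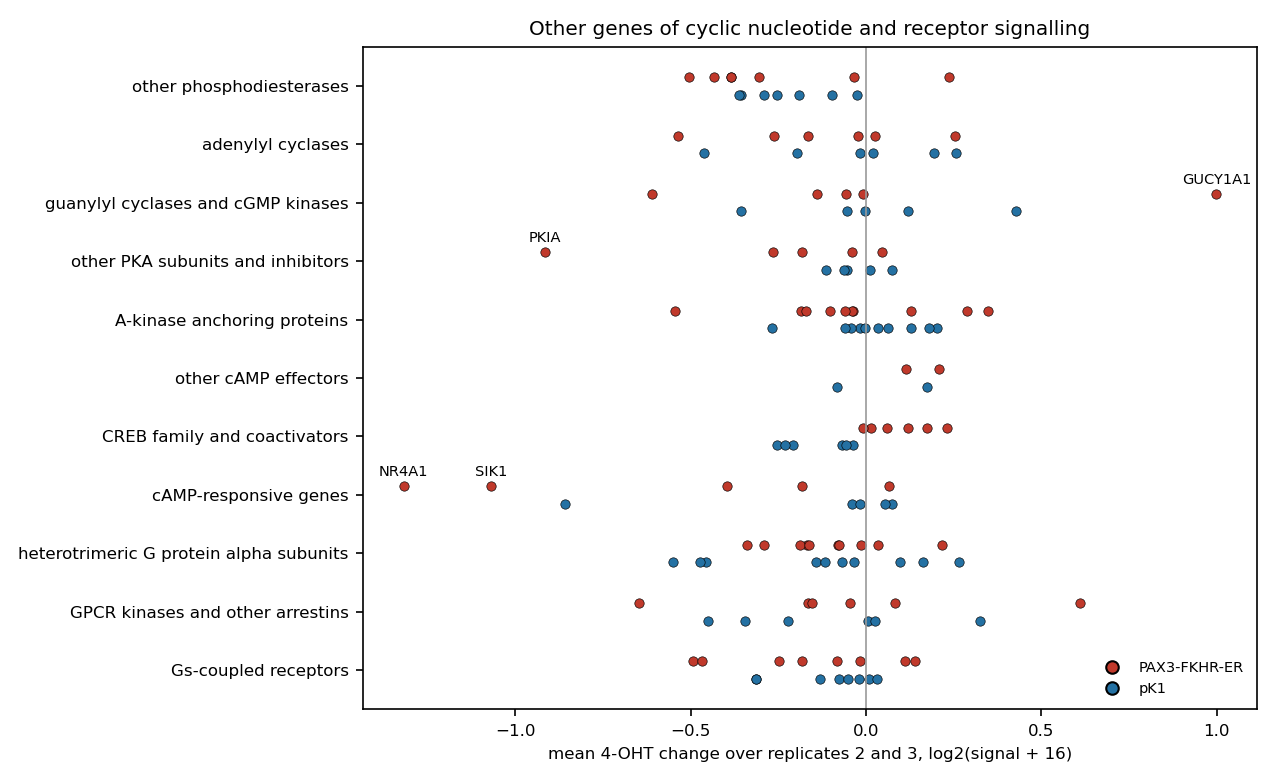
Mean change with 4-OHT over replicates 2 and 3 on the log2(signal + 16) scale for the 70 tested genes of the 11 lists, with PAX3-FKHR-ER as red points above pK1 as blue points in each row. Most points lie within 0.5 of 0, and the named red points are GUCY1A1 on the higher side and NR4A1, SIK1 and PKIA on the lower side.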

How the data were processed

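RNA of RD cells was read on U133A arrays from Affymetrix. There were 12 samples with 1 array each, 3 in each of 4 groups. The deposited values were MAS5 signals, an intensity on a linear scale, which the authors made with GCOS and MAS5. The submitters' processing notes name both and give no version. Extraction with a column kit and biotin labelling are per the labels' protocols. The table held 22283 probe sets. The 68 controls were left out, and probe sets with 1 annotated symbol were named. A check of these symbols by Entrez identifier in a RefSeq table of GRCh38 altered 0.

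Signals were not scaled again. Probe sets with a mean signal under 36.7, the lowest 40%, were left out. Group means of log2(signal + 16) were fitted with limma 3.58.1 in R 4.3.3 (lmFit, eBayes with trend), two-sided, with Benjamini-Hochberg adjustment over 13329 probe sets in each of 5 contrasts. A probe set was called at an adjusted p under 0.05. Of the probe sets of a gene, the brightest over 12 arrays stood for it. The fit was tested on simulated data. Plots used matplotlib 3.10.9 under Python 3.11.15.

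Arrays sharing a number deviated together from their group means, with r of 0.70 to 0.85 for 4-OHT pairs and 0.15 to 0.69 between constructs. Every value exceeded 0.1, and the numbers were taken to pair the arrays. Each group mean holds a replicate 1 array, and these stood apart in every group, so a positive r can arise without pairing. The check therefore cannot settle the pairing, least of all between constructs in replicate 2, where r was 0.15 and 0.18. Fits with a replicate block are given beside the others. For the 4-OHT changes and their difference the block was the pair that shares a construct and a number. Between constructs the block was the number alone, shared by both constructs. The block in replicates 2 and 3 leaves 2 pairs per construct. Arrays carry no depth, so precision is limited by their number.

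The genes, the lists and the fit to replicates 2 and 3 were chosen with earlier results of these data known. From each list the genes past the threshold were named, or otherwise the 2 with the largest mean change in PAX3-FKHR-ER replicates 2 and 3. The genes most like PDE9A, ARRB1 and PRKAR2B were the 5 with the highest r. Alternatives were other filters, pseudocounts, scalings and fits, and the omission of each array.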

Additional observations from a re-analysis of the deposited data

Results flagged for a closer look

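In 3 of the 19 tested member probe sets and in 1 list gene, all 3 PAX3-FKHR-ER pairs moved one way with 4-OHT. All 3 pK1 pairs moved the other way, and these probe sets and this gene are given here for that pattern. Of all tested probe sets 3.12% showed it, and the lists held 70 tested genes. PRKACB, the beta catalytic subunit of PKA, had a mean change of 0.14 in PAX3-FKHR-ER cells and -0.14 in pK1 cells by its brightest probe set, and both signs within each construct by its second. PDE4D, a cyclic AMP phosphodiesterase, had 0.27 and -0.16 by probe set 210837_s_at, and its brightest probe set was lower in all pairs of both constructs. PRKAR1A, a regulatory subunit of PKA, had -0.19 and 0.34 by 200603_at, which its other 2 probe sets did not repeat. POPDC3, a cyclic AMP binding membrane protein, had changes of 0.05, 0.21 and 0.20 in PAX3-FKHR-ER cells, a mean of 0.16, and of -0.01, -0.14 and -0.02 in pK1 cells. These differences are given without a test, since the genes were picked for the pattern.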

How the results depend on the processing

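Over the 12 arrays 0 probe sets were called in each of the 5 comparisons, with 62, 72, 39, 277 and 267 at an unadjusted limma p under 0.05 (4-OHT in PAX3-FKHR-ER cells, 4-OHT in pK1 cells, their difference, the constructs without and with 4-OHT). The count was again 0 with other filters, pseudocounts and scalings, without the trend, with only the groups compared, with the replicate block, with the mean of a gene's probe sets and without each array in turn. The replicate block over 12 arrays gave 894, 916, 634, 981 and 931 at the unadjusted p. With the pair as a block in replicates 2 and 3, 186 were called for 4-OHT in PAX3-FKHR-ER cells and 7 for the difference. With the replicate number as the block there, 1 and 21 were called between the constructs without and with 4-OHT. Without the block in these replicates the constructs gave 1 and 13, and the other comparisons 0. The calls of PKIA and SIK1 were lost without the block there, at adjusted p = 1, and with the block over 12 arrays, at 0.651 and 0.807. Their changes stayed negative with each array left out, at -1.46 to -0.16 and -0.86 to -0.30.

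The change in PAX3-FKHR-ER cells kept its sign under every alternative for PDE9A (0.60 to 2.21), PRKAR2B (0.60 to 1.77) and ARRB1 (0.76 to 1.41). All alternatives reuse the arrays whose changes chose the genes, so the kept sign is a description. None used replicate 1 alone, where these changes were 0.02, -0.36 and 0.08. The PAX3-FKHR-ER change of PDE4D turned positive in 3 of 23 alternatives (-0.37 to 0.22) and that of PRKAR2A negative in 5 of 24 (-0.21 to 0.17). PDE9A, PDE4D and PRKAR2B were not tested with the 60% filter. The change of PRKAR2A in pK1 cells turned to 0.013 with equal medians and to 0.11 in replicates 2 and 3 with or without the replicate block. In PAX3-FKHR-ER cells PRKG1 turned to -0.062 with 64 added and to -0.61 in replicates 2 and 3 with or without the block, and RAPGEF3 to 0.12 there.

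With each array left out in turn, the pK1 change ran over -0.50 to 0.86 for PDE9A, -0.66 to 0.0625 for PDE4D, -0.23 to 0.54 for PRKAR1A, -0.36 to 0.22 for PRKAR2A, -0.33 to 0.44 for PRKAR2B, -0.26 to 0.0053 for PRKACB and -0.68 to 1.22 for ARRB1. The change in PAX3-FKHR-ER cells ran over -0.74 to 0.0076 for ADCY1, -0.16 to 0.15 for ADCY2, -0.76 to 0.55 for PRKG1, -0.81 to 1.50 for AKAP12, -0.11 to 0.47 for POPDC3, -0.56 to 0.088 for RAPGEF3, -0.45 to 0.0030 for GNAO1, -0.41 to 0.13 for MC1R and -0.87 to 0.27 for VIPR1. The cause of these turns was not tested.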
